A study of Drosophila melanogaster with 7 samples.

Results

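Mitotic Su(Hw) binding was set against mitotic CP190 binding on the large arms (2L, 2R, 3L, 3R, X) and chromosome 4 of Kc167 cells. Kc167 is an established line grown out of embryos of the fruit fly Drosophila melanogaster. The comparison rests on 1024 Su(Hw) peaks and 3759 CP190 peaks, 4783 of the 40204 peaks in the 7 lists of the series, found by chromatin immunoprecipitation followed by sequencing (ChIP-seq). A Su(Hw) peak was called shared when it overlapped a mitotic CP190 peak by at least 1 bp, and private otherwise. The groups used were Su(Hw) in mitosis, CP190 in mitosis and, for context, CP190 in interphase and BEAF and dCTCF in both phases. All came from the same line, with no mutation and no drug named in the labels. The cells had been fixed with 1% formaldehyde, stained for H3S10ph (the phosphorylated histone mark of mitotic chromatin) and for DNA, and sorted into mitotic and interphase cells before precipitation. Antibodies to Su(Hw) and CP190 were both from rabbit, and the H3S10ph antibody, detected with an anti-rabbit reagent for the sort, was on the chromatin of all samples before precipitation. Its part in the shared peaks was not tested. A single library stands for each protein and phase. The spread between cultures is therefore unknown, no p-value is given, and the 95% intervals cover only the counting error over peaks of 1 library. Read depth is unknown too, so a site without a peak is a site with no call and not a site shown to be empty.

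Su(Hw) is a DNA-binding protein with many zinc fingers, best known from the gypsy retrotransposon, whose insulator it binds and where it blocks enhancers from acting on promoters beyond it. CP190 carries a BTB domain and zinc fingers, was first described at centrosomes, and is brought to chromatin by several sequence-specific partners, among them Su(Hw), the CTCF homolog dCTCF, and BEAF, a factor first found at the boundary elements of heat shock genes. On gypsy-type insulators, Su(Hw) works in a complex with CP190 and an isoform of Mod(mdg4).

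Of the 1024 mitotic Su(Hw) peaks, 620 (60.5%, 57.5 to 63.5%) were shared with mitotic CP190 and 404 were private. Seen from the other side, 639 of the 3759 CP190 peaks (17.0%, 15.8 to 18.2%) met a Su(Hw) peak. The Su(Hw) list held only 1024 peaks, and few met more than 1 CP190 peak. List sizes alone therefore left most CP190 peaks without a Su(Hw) call. The mitotic CP190 peaks covered 2.06% of the 120.28 Mb span of the arms. The pairing was close to 1 to 1. Of the shared Su(Hw) peaks, 599 met a single CP190 peak, 18 met 2 and 3 met 3, and only 5 CP190 peaks met 2 Su(Hw) peaks. Few peaks lay close to the 1 bp limit that divides shared from private, though stricter rules moved more of them. Shared peaks numbered 550 with an overlap of 50% of both peaks and 579 with 400 bp around midpoints. The smallest overlaps among shared peaks were 30 and 43 bp, only 5 of 620 overlaps were under 200 bp, and the private peaks nearest to CP190 lay 31 and 49 bp away from it.

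Su(Hw) and CP190 summits could not be compared, since the lists give regions only, but the regions were concentric to a large degree. The median distance between the Su(Hw) midpoint and the CP190 midpoint was 65.75 bp (58.0 to 73.0 bp). It was at most 50 bp in 40.3% of the 620 pairs, at most 100 bp in 67.3% and at most 500 bp in 94.5%. The overlap had a median of 647 bp, which was 80.4% of the Su(Hw) peak, while the median CP190 peak lay wholly inside it. The CP190 peak was contained in the Su(Hw) peak in 311 pairs, the Su(Hw) peak in the CP190 peak in 64, and 245 were staggered. The Su(Hw) peaks of the pairs were the wider, with a median of 862.5 bp against 682 bp for CP190. CP190 lay at lower coordinates in 339 pairs and at higher coordinates in 280, with a median signed offset (CP190 minus Su(Hw)) of -10.5 bp (-17.5 to -1.5 bp).

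The offset was smaller between narrow peaks, and it varied little with the Su(Hw) score. Where both peaks were at most 1000 bp wide the median was 51.5 bp (45.5 to 58.0 bp, 387 pairs), against 106 bp (92.0 to 141.5 bp, 233 pairs) where either was wider. Across quintiles of the Su(Hw) score, ordered by the authors' score within the list, the medians lay between 56.5 and 69.75 bp. Sites with dCTCF or BEAF in any list had a median of 72.0 bp (59.5 to 83.5 bp, 347 pairs) and those with neither 58.0 bp (51.5 to 69.0 bp, 273 pairs). The closest pair on 3R, Su(Hw) at 5926051 to 5926915 and CP190 at 5926113 to 5926853, had the same midpoint. The widest offset belonged to 2L 1103540 to 1109605, a Su(Hw) region of 6066 bp, whose best CP190 partner at 1107608 to 1109677 was centred 2070 bp away. Another broad region, the 3L CP190 peak at 4901292 to 4907139 of 5848 bp, covered 2 separate Su(Hw) peaks at offsets of 1692 and -1262.5 bp.

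Set beside the other mitotic proteins, Su(Hw) lay nearer to CP190 than dCTCF did, and its distance was close to that of BEAF. The shares of pairs within 100 bp were 67.3% for Su(Hw), 63.7% for BEAF (1038 pairs) and 29.6% for dCTCF (783 pairs). Su(Hw) exceeded dCTCF by 37.6 percentage points (32.6 to 42.4), and its difference from BEAF was 3.58 points (-1.18 to 8.23). Restricting the pairs to peaks of at most 1000 bp gave medians of 51.5 bp for Su(Hw), 53.0 bp for BEAF and 174.5 bp for dCTCF. At the 110 Su(Hw) peaks that met both mitotic CP190 and mitotic BEAF, the median offset was 91.75 bp (62.0 to 109 bp) to CP190 and 136 bp (124 to 177.5 bp) to BEAF, which was the farther at 69 of them. At the 127 that met mitotic CP190 and mitotic dCTCF, it was 70.0 bp (55.5 to 92.0 bp) to CP190 and 143 bp (105 to 205 bp) to dCTCF, the farther at 85.

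**Figure D1:**
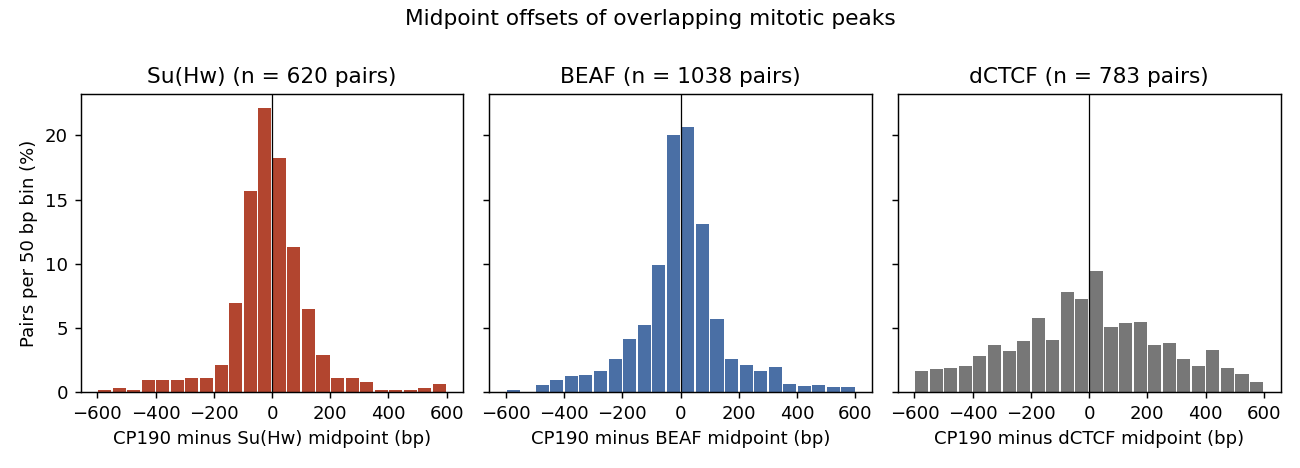
Signed midpoint offset (bp) between a mitotic CP190 peak and the Su(Hw), BEAF or dCTCF peak it overlaps, as the percentage of pairs in each 50 bp bin; pairs beyond 600 bp are not drawn (25, 20 and 71 pairs). Su(Hw) and BEAF pairs gather around 0, with 67.3% and 63.7% within 100 bp, whereas 29.6% of dCTCF pairs do.

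The proportion of Su(Hw) peaks shared with CP190 also depended on peak width, which differs between the lists. Over all widths, Su(Hw) exceeded BEAF by 17.9 points (14.2 to 21.4) and dCTCF by 25.5 points (21.9 to 29.1). Among peaks over 800 and up to 1000 bp wide, CP190 was called at 167 of 300 Su(Hw) peaks (55.7%), 141 of 243 BEAF peaks (58.0%) and 228 of 751 dCTCF peaks (30.4%). At that width the difference from BEAF was -2.36 points (-10.6 to 6.0) and that from dCTCF was 25.3 points (18.7 to 31.7). Among peaks of at most 600 bp, by contrast, Su(Hw) had CP190 at 60.9% of 92 peaks, BEAF at 33.8% of 1401 and dCTCF at 20.5% of 151.

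Higher scoring Su(Hw) peaks were shared more often, and this held among peaks of similar width. The shared proportion was 34.0% (25.6 to 43.6%) in the lowest decile of Su(Hw) scores, 57.8% in the fifth decile, 75.5% in the ninth and 96.1% (90.3 to 98.5%) in the highest, where 98 of 102 peaks had CP190. The highest quintile exceeded the lowest by 43.8 points (35.1 to 51.6). Within the 3 classes of Su(Hw) width, from narrow to wide, that excess was 49.2, 45.1 and 27.1 points, with intervals that left out 0. Width on its own made a smaller difference, with 74.5% shared in the widest quintile against 54.6% in the narrowest. The median score was 90.9 (85.7 to 95.9) for shared peaks and 68.1 (65.2 to 71.3) for private ones. A score of at least 200 was reached by 100 of 620 shared peaks and 4 of 404 private peaks, and a score of at least 500 by 24 and 0 (0 to 0.942%).

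**Figure D2:**
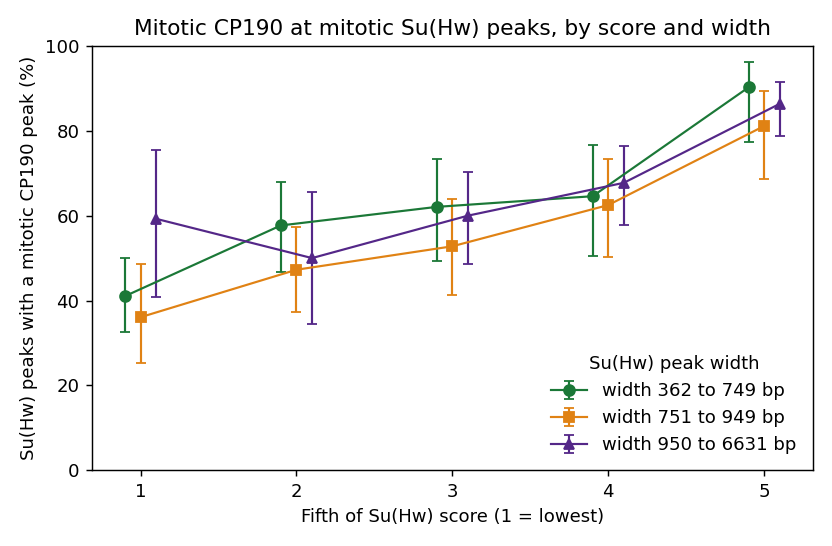
Percentage of mitotic Su(Hw) peaks that overlap a mitotic CP190 peak (y axis) in each quintile of the Su(Hw) score (x axis, 1 lowest), for 3 classes of Su(Hw) peak width; bars are 95% Wilson intervals. In the highest quintile the 3 classes stand at 90.2, 81.1 and 86.4%, and in the lowest at 41.0, 36.1 and 59.3%.

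The 6 highest scoring private Su(Hw) peaks all overlapped CP190 in interphase, which was common at Su(Hw) peaks in general. Interphase CP190 was called at 74.8% of all Su(Hw) peaks. In the top score quintile it was at 96.0% of 175 shared and 82.8% of 29 private peaks, so it was not particular to private peaks. The top one, at 2R 11924082 to 11925017 with a score of 311.71, ranked 49 among the 1024 Su(Hw) peaks. It had an interphase CP190 peak (score 1412.7), and the nearest mitotic CP190 peak was 21413 bp away. The peaks at 3R 21186097 to 21187123 (245.38), 3L 7215548 to 7216646 (195.89) and 3L 17247315 to 17248067 (195.81) also overlapped interphase CP190 and no other list. At 3L 19342767 to 19343550 (235.33) interphase CP190 had a score of 2206.07 and a weak interphase BEAF peak (62.37) was present. The remaining site of the 6, 2R 4665451 to 4671677, was a broad region of 6227 bp with weak peaks of interphase CP190 (66.34), interphase BEAF (71.47) and mitotic dCTCF (112.76). Scores are the authors', and those from different lists do not compare the strength of binding.

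Score ranks of Su(Hw) and CP190 agreed weakly over the 620 shared pairs, with a Spearman rho of 0.27. The points share chromatin and peak calling, and width tracked between the partners more closely than score did (rho 0.65). Within terciles of Su(Hw) width, from narrow to wide, rho for the scores was 0.26, 0.23 and 0.43. It was 0.30 at the 347 sites with dCTCF or BEAF and 0.17 at the 273 sites with neither. By arm it was 0.08 on 3R, 0.21 on 2L, 0.30 on X, 0.37 on 2R and 0.40 on 3L. The agreement was most visible among the highest scoring Su(Hw) peaks. When both scores were divided into quintiles over the pairs, 24.8% of pairs fell in the same quintile and 39.5% lay 2 or more apart. A CP190 partner in the highest quintile of the whole CP190 list was found for 56.0% (48.6 to 63.2%) of shared Su(Hw) peaks in the highest Su(Hw) quintile. From the first to the fourth Su(Hw) quintile, the proportions were 24.4, 33.0, 33.6 and 31.3%.

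Named pairs show agreement and disagreement. At 3L 12639215 to 12639735, a peak of 521 bp, Su(Hw) scored 848.5 and CP190 518.87, with midpoints 1 bp apart. Here interphase CP190 was the sole further partner. In contrast, 2L 20120872 to 20121390 had a Su(Hw) score of 51.11, close to the floor of the list, and a CP190 score of 2425.33. That site also carried dCTCF in mitosis (1663.61) and in interphase (3100), and BEAF in interphase (125.54). The 2R site 8867831 to 8868974 had scores of 52.59 for Su(Hw) and 863.29 for CP190, with neither dCTCF nor BEAF called. The reverse was seen at 3L 16508533 to 16509189, where Su(Hw) scored 194.37 and CP190 53.68, and at 3R 18136124 to 18137155, with 153.58 and 51.81. Both of these had strong interphase CP190 peaks (1946.12 and 3100). The 3R region 12582114 to 12588121, of 6008 bp, had a Su(Hw) score of 406.9, a mitotic CP190 score of 57.98 and no interphase CP190 call. Mitotic dCTCF (110.85) and interphase BEAF (58.2) were called there.

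**Figure D3:**
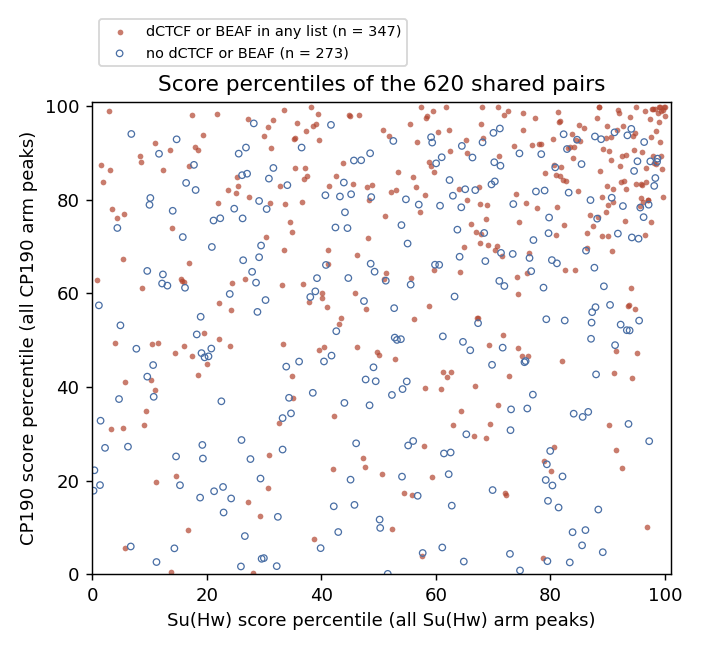
Score percentile of each shared Su(Hw) peak within its list (x axis) against that of its CP190 partner (y axis), for the 347 pairs with dCTCF or BEAF in any list (filled) and the 273 without (open). Points fill most of the square, with a denser top right corner (rho 0.27).

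Private Su(Hw) peaks seldom met dCTCF or BEAF, whereas shared peaks often did. Any dCTCF or BEAF list was overlapped by 38.9% of all Su(Hw) peaks, by 347 of 620 shared peaks (56.0%) and by 51 of 404 private peaks (12.6%), a difference of 43.3 points (38.0 to 48.2). Mitotic BEAF, at 12.0% of all Su(Hw) peaks, was at 17.7% of shared and 3.22% of private ones. For mitotic dCTCF, at 14.6% of all, these were 20.5 and 5.45%. Interphase BEAF (27.2% of all) was at 40.5 and 6.93%, and interphase dCTCF (19.2% of all) at 29.5 and 3.47%. The difference for any dCTCF or BEAF list was 36.4 points (23.4 to 48.0) in the lowest score quintile and 55.4 points (37.7 to 64.8) in the highest. It lay between 40.8 and 44.2 points in the 3 width classes. Turned round, CP190 was called in mitosis at 87.2% of the 398 Su(Hw) peaks with dCTCF or BEAF and at 43.6% of the 626 without. It was at 95.2% of the 165 with both, 82.9% of the 117 with BEAF only and 80.2% of the 116 with dCTCF only.

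CP190 in interphase was called at many private Su(Hw) peaks as well. It was at 74.8% of all Su(Hw) peaks, at 546 of 620 shared (88.1%) and at 220 of 404 private (54.5%, 49.6 to 59.2%). The difference was 33.6 points (28.1 to 39.0). The interphase CP190 list was the larger, with 10431 peaks on the arms against 3759 in mitosis. It covered 6.05% of the span against 2.06%, and its size was not matched in these counts. The 2 CP190 lists define 4 classes. In all, 546 Su(Hw) peaks had CP190 in both phases, 74 in mitosis alone, 220 in interphase alone and 184 in neither. Their median Su(Hw) scores were 93.8, 72.3, 75.6 and 61.6. The interphase CP190 peaks met by shared Su(Hw) peaks stood at a median percentile of 87.8 (83.1 to 90.1) of the interphase CP190 list, and those met by private Su(Hw) peaks at 68.7 (61.9 to 72.4). Midpoint offsets to interphase CP190 had medians of 84.0 bp for shared and 68.5 bp for private peaks. These interphase CP190 peaks had median widths of 928.5 and 644.5 bp, and the offsets were not compared at matched width. Among peaks of the top score quintile, 168 of 175 shared and 24 of 29 private peaks had interphase CP190.

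**Figure D4:**
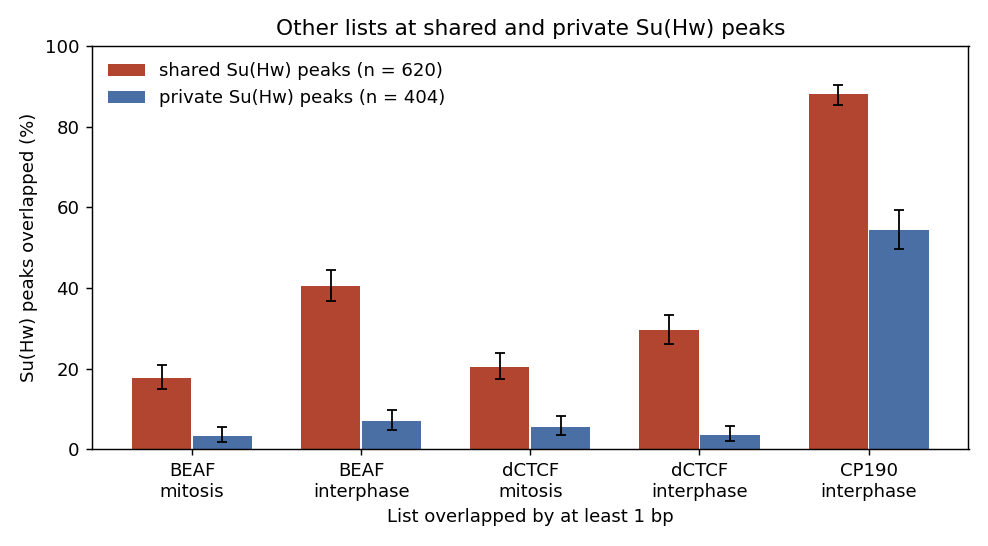
Percentage of shared (n = 620) and private (n = 404) mitotic Su(Hw) peaks that overlap a peak of each other list by at least 1 bp, with 95% Wilson intervals. Shared peaks stand higher in all 5 lists, and interphase CP190 has the highest share of private peaks (54.5%, 49.6 to 59.2%).

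Some Su(Hw) sites stood alone, and 170 of the 1024 Su(Hw) peaks (16.6%, 14.4 to 19.0%) overlapped no peak of any other list. Shared peaks overlap mitotic CP190 by definition, so all 170 were private, which is 42.1% of the 404. The highest scoring were 3R 4847404 to 4848759 (169.46) and 2L 1051799 to 1053168 (161.94). At the other end, 22 of the 620 shared Su(Hw) peaks (3.55%) were called in all 7 lists. Mitotic CP190 was the sole partner of 50 shared peaks (8.06% of the 620). Of these, 3R 21224459 to 21226250, with a Su(Hw) score of 269.48 and a CP190 score of 129.75, had the highest Su(Hw) score.

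The CP190 peaks that met Su(Hw) scored higher and were wider than the other CP190 peaks, and less often sites of BEAF. Their median score was 219 (194 to 251) against 113 (109 to 119) for CP190 peaks without Su(Hw), and their median width 684 bp against 548 bp. Su(Hw) was present at 31.3% (28.1 to 34.7%) of the highest quintile of CP190 scores and at 8.51% (6.72 to 10.7%) of the lowest. Mitotic BEAF, at 28.1% of all mitotic CP190 peaks, overlapped 17.4% of those with Su(Hw) and 30.3% of those without, a difference of -12.9 points (-16.1 to -9.44). Interphase BEAF (50.1% of all) was at 39.1 and 52.4%, and interphase dCTCF (34.1% of all) at 29.1 and 35.1%. For mitotic dCTCF (21.8% of all) the difference was -1.39 points (-4.71 to 2.21). In the highest quintile of CP190 scores the differences were -9.90 points for mitotic BEAF, -22.7 for interphase dCTCF and -12.3 for mitotic dCTCF, each with an interval below 0. In the lowest quintile, which held 64 CP190 peaks with Su(Hw), they were -9.85 points (-16.2 to 0.518), -9.81 (-15.7 to 0.188) and -2.54 (-10.1 to 8.59), each with an interval that held 0. Interphase BEAF differed by -15.1 points (-22.6 to -7.56) in the highest quintile and by -23.0 points (-31.5 to -11.2) in the lowest. Interphase CP190 (88.2% of all) was at 87.5% of CP190 peaks with Su(Hw) and at 88.4% of those without. Among mitotic CP190 peaks that had no interphase CP190 call, 80 of 443 (18.1%) met Su(Hw), and 559 of 3316 (16.9%) of the others did.

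Su(Hw) peaks were spread widely, and the interval of the difference in spacing between shared and private peaks held 0. The nearest other Su(Hw) midpoint was at a median of 28578 bp (24565 to 33854 bp) for shared peaks and 34996 bp (28468 to 43777 bp) for private ones, a difference of -6418 bp (-16073 to 1976 bp). Leaving out the first 1.5 Mb of 2L, where Su(Hw) peaks were dense, the difference was -10586 bp (-17896 to -705 bp). Peaks that are nearest to each other have the same distance and were counted separately. The spacing intervals, also those of the alternative settings, may therefore be too narrow, and no difference is read from them. A Su(Hw) peak within 10 kb was found for 26.5% of shared and 22.5% of private peaks. Over all 1018 pairs of neighbours along the arms, the next Su(Hw) peak was shared after 60.8% of shared peaks and after 59.8% of private peaks. Mixed pairs made up a lower share of close neighbours than of all neighbours, with intervals that overlap slightly. Of the 160 pairs under 10 kb apart, 75 were both shared (46.9%, 39.3 to 54.6%), 26 both private and 59 of 1 kind each (36.9%, 29.8 to 44.6%). Over all pairs, which include these, 36.9% were both shared (34.0 to 39.9%) and 47.2% of 1 kind each (44.2 to 50.3%). Without the first 1.5 Mb of 2L, 58 of 118 close pairs were both shared and 42 of 1 kind each.

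Shared peaks had a further CP190 peak, beyond their partners, at a median gap of 7671 bp (6653 to 8978 bp), with 362 of 620 within 10 kb. For private peaks the median gap to the nearest mitotic CP190 peak was 11406 bp (9569 to 13613 bp), with 26 of 404 within 1 kb and 187 within 10 kb. The neighbourhood of shared peaks held more CP190, with a mean of 1.05 further CP190 peaks within 10 kb of shared Su(Hw) midpoints and 0.691 within 10 kb of private ones.

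Groups of neighbouring Su(Hw) peaks less than 10 kb apart held 255 of the 1024 peaks in 95 groups, and 64.3% (58.3 to 69.9%) of these were shared, against 59.3% (55.8 to 62.7%) of the 769 single peaks. The largest was a run of 7 peaks at 2L 1129187 to 1151696, of which 5 were shared. A run of 6 at 2L 522864 to 558884 had 5 shared peaks, including 522864 to 524091, whose CP190 partner of score 648.09 was centred 1 bp away. A further run of 6 at 2R 20262769 to 20277752 had 2 shared and 4 private peaks, and none of its peaks overlapped dCTCF or BEAF.

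The shared proportion varied little between the large arms. It was 63.0% on 2L, 63.9% on 2R, 56.6% on 3L, 57.6% on 3R and 61.8% on X, with overlapping intervals, and 4 of 8 on chromosome 4. X differed from the 4 large autosomal arms by 1.47 points (-6.01 to 8.62). With only the 1024 highest scoring CP190 peaks, this difference was 11.0 points (3.93 to 18.3). Density also differed between arms. Per Mb of arm span, shared peaks numbered 6.64 on 2R, 5.84 on X, 5.04 on 2L, 4.52 on 3L and 4.23 on 3R, while private peaks lay between 2.96 on 2L and 3.75 on 2R. The 2L density rested on the first 1.5 Mb of the arm, and over the rest of 2L it was 3.21 shared and 1.53 private peaks per Mb, below the other large arms. The highest scoring site of the small chromosome 4 was shared. It lay at 435674 to 436796 with a Su(Hw) score of 501.74 and a CP190 score of 548.08.

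**Figure D5:**
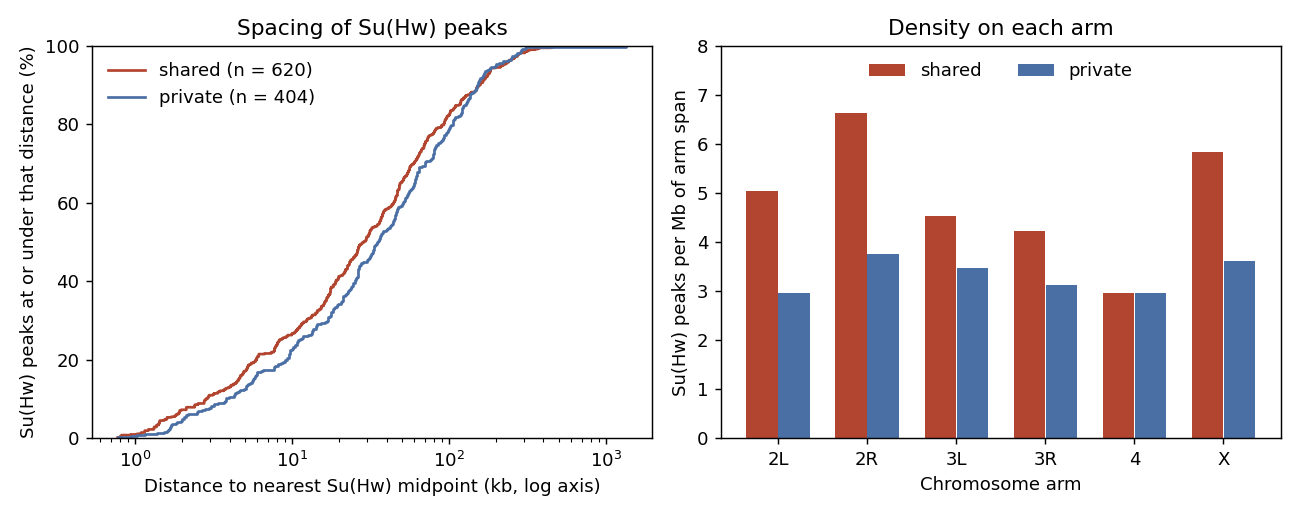
Left, cumulative percentage of shared and private Su(Hw) peaks by distance to the nearest other Su(Hw) midpoint (kb, log axis), with the shared curve slightly to the left (medians 28578 and 34996 bp). Right, shared and private Su(Hw) peaks per Mb of each arm, highest for shared peaks on 2R (6.64) and X (5.84), with 2L at 3.21 shared and 1.53 private when its dense first 1.5 Mb (included in the bars) is left out.

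The shared proportion was higher at the centromere-side end of the arms. When each large arm was cut into 5 equal lengths, the length nearest the centromere had 110 of 145 Su(Hw) peaks shared (75.9%) and the other lengths together 506 of 871 (58.1%), a difference of 17.8 points (9.53 to 24.8). The direction was the same on all 5 large arms, with the smallest difference on 3L (63.6 against 55.7%). Median scores were 78.9 near the centromere and 79.2 elsewhere, and median widths 849 and 841 bp. Peaks near the centromere more often overlapped dCTCF or BEAF, at 53.1% against 36.5% elsewhere. How much of the 17.8 points goes with that imbalance was not tested. For peaks with dCTCF or BEAF the shared proportions were 87.0% near the centromere and 87.1% elsewhere. For peaks with neither they were 63.2% (43 of 68) near the centromere and 41.4% (229 of 553) elsewhere, a difference of 21.8 points (9.24 to 33.0). Whether the 2 differences are unequal was not tested.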

How the data were processed

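The aligner was Bowtie 0.12.5, per the submitters' processing notes. Per the labels' protocols, chromatin was sonicated to 200 to 1000 bp and libraries were gel-selected for 200 to 300 bp. The authors deposited 1 peak list per library, with coordinates and a score per peak. The peak names begin with MACS. What the score means, its threshold, any control library and the genome build: not given in the sources used here. The deposited score therefore served for ranks and filters inside a list and never between lists. Sequence names such as Uextra belong to a genome release before release 6, that of the gene table at hand, so peaks were not assigned to genes, and no sequence was read. Positions are those of the lists, whose starts count from 0 and were written 1-based.

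Groups came from the sample titles. Each shared Su(Hw) peak was paired with the CP190 peak of largest overlap. Shares have Wilson intervals, differences of shares Newcombe intervals and medians exact binomial order-statistic intervals (95%); a difference of medians combines the intervals of both. Correlations are descriptions across peaks. The span of an arm is the highest peak end in any list. Alternatives for each of 9 results were an overlap of 50% of both peaks, scores from 100 upward, as many CP190 peaks (of each phase) as Su(Hw) peaks, 400 bp around midpoints, all sequences, and peaks up to 2000 bp wide. One further alternative, without the first 1.5 Mb of 2L, was chosen after seeing the data. The cuts by arm length, the width classes and the comparison at matched width were also chosen then. The peaks compared and the analyses were chosen with earlier results of these data known. Named peaks are examples from fixed classes: the highest scoring shared and private peaks of each arm and of the list, the pairs most discordant in score percentile, the smallest and largest offsets, the highest scoring peaks alone or with mitotic CP190 alone, and the largest runs. Overlap counts equalled those of bedtools 2.31.1 in 24 of 24 comparisons, and the overlap, offset and interval code was tested on simulated data. Python 3.11.15, NumPy 2.4.6, pandas 2.3.3, SciPy 1.17.1 and matplotlib 3.10.9 were used. The depth per library is unknown.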

Additional observations from a re-analysis of the deposited data

Results flagged for a closer look

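Outside the main arms, 573 of 805 mitotic Su(Hw) peaks (71.2%, 68.0 to 74.2%) overlapped a mitotic CP190 peak on the same sequence. These peaks lie outside the comparison above, and they were singled out because the data hold this overlap in sequences it did not use. Most were on Uextra, the collection of unplaced sequence, where 524 of 717 Su(Hw) peaks (73.1%) met CP190. How much of these sequences the CP190 peaks cover was not computed. The share is therefore not read as closer pairing than on the arms.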

How the results depend on the processing

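With 6 other settings for each of 9 results, 32 of 54 values lay inside the interval of the reported value and 22 outside it. Among the 32, the difference of X from the autosomes on all sequences could not change, because it uses the large arms only. No difference whose interval left out 0 changed sign. The shared proportion of Su(Hw) peaks was 53.7% with a reciprocal overlap of 50%, 67.5% with scores of at least 100, 29.5% with equal numbers of peaks, 56.5% with 400 bp windows and 65.2% on all sequences. That of CP190 peaks was 14.6, 10.7, 29.6, 15.4 and 21.9% in the same order, and 15.0% with peaks up to 2000 bp. Equal numbers keep 1024 of 3759 CP190 peaks, which limits the number of Su(Hw) peaks that can be matched. The median offset was 57.75 bp with a reciprocal overlap. Score agreement (rho) was 0.15 with equal numbers. The median gap of private peaks to CP190 was 8305.5 bp with a reciprocal overlap, 23320.5 bp with scores of at least 100, 39269 bp with equal numbers and 9137 bp on all sequences. The excess of interphase CP190 at shared peaks was 24.3 points with scores of at least 100 and 19.3 points on all sequences, and the difference of X from the autosomes was 11.0 points with equal numbers. The spacing difference between shared and private peaks was -22565 bp with scores of at least 100 and 4136 bp, in the opposite direction, with equal numbers; both intervals held 0, and on all sequences the interval did not (-6558 bp, -11909 to -3249 bp). The cause of these shifts was not tested. Without the first 1.5 Mb of 2L, all 9 values stayed inside the reported intervals. No paired analysis was possible because each group was 1 library, and for the same reason no replicate could be left out in turn. The lists give no read numbers, so calls that are missing at low scores may reflect depth, which cannot be told apart from absence of binding.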

Other observations

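The first 1.5 Mb of 2L stood apart in the Su(Hw) list. It held 82 of the 184 Su(Hw) peaks on 2L and the next 1.5 Mb held 9. Per Mb this was 54.7 Su(Hw) peaks in the segment, against 7.93 over the rest of the arms. Mitotic CP190 was also denser there, with 77.3 peaks per Mb in the segment and 30.7 elsewhere, whereas mitotic BEAF had 21.3 and 20.2 and mitotic dCTCF 18.7 and 18.6. Interphase dCTCF had 34.0 and 23.8 peaks per Mb, interphase CP190 98.7 and 86.6, and interphase BEAF 48.0 and 47.2. Of the 82 Su(Hw) peaks, 47 were shared with mitotic CP190 (57.3%, 46.5 to 67.5%), against 60.8% (57.7 to 63.9%) elsewhere. Seen from CP190, 49 of the 116 mitotic CP190 peaks in the segment met Su(Hw), against 16.2% (15.0 to 17.4%) elsewhere. The shared proportion thus did not stand apart for Su(Hw) peaks. That of CP190 peaks was higher, which follows from the counts where Su(Hw) density rises more than CP190 density. It is not a separate result, since the segment was chosen for its Su(Hw) density. Interphase CP190 was called at 41 of the 82 Su(Hw) peaks in the segment and at 725 of 942 (77.0%, 74.2 to 79.5%) elsewhere.

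Median peak widths were higher in the segment in all 7 lists. Median Su(Hw) widths were 1363.5 bp (1235 to 1643 bp) there and 824.5 bp elsewhere, those of mitotic CP190 757 and 561 bp, and those of mitotic dCTCF 1559 and 893 bp. In interphase they were 822.5 and 597 bp for CP190, 707 and 613 bp for dCTCF, and 612 and 494 bp for BEAF. For mitotic BEAF, 636.5 bp (551 to 776 bp) and 562.5 bp (555 to 574 bp) had overlapping intervals. Paired midpoints were farther apart, at a median of 175.5 bp (86.0 to 323 bp) against 62.0 bp (55.5 to 70.0 bp). Of the 8 runs of at least 5 Su(Hw) peaks, 6 lay in this segment. The segment was chosen after its density was seen, and whether width or density has a technical source was not tested.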
